A study of Mus musculus with 12 samples.

Results

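Neurospheres grown from mouse fibroblasts were compared with primary neurospheres grown from pluripotent cells. The comparison used 6 of the 12 arrays of a microarray series, assigned to the sides by their labels. The fibroblast side held 4 arrays. Of the adult fibroblast-derived pair, replicate 1 was cultured with epidermal growth factor (EGF) plus cAMP. Replicate 2 was given LIF, leukaemia inhibitory factor. Of the embryonic fibroblast-derived pair, replicate 3 had LIF, and replicate 4 had LIF together with cAMP. The primary side held 1 array from the induced pluripotent stem (iPS) line 38C2 and 1 array from the embryonic stem (ES) line EB3. The medium of every neurosphere culture was MHM. The fibroblasts were C57BL/6, whereas no strain is given for the iPS and ES lines, so that strain, cell of origin and culture additives cannot be told apart from the side. The labels give no sex, and transcripts of the X and Y chromosomes differed between and within the sides (values are given with Xist). The labels name no factor or transgene by which the fibroblasts were converted and do not say whether arrays came from separate cultures. No group held 2 arrays of the same line and additives. The spread behind the p-values thus comes from pairs of arrays that differ in line or in additives, and not from replicates of 1 condition.

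A neurosphere is a ball of dividing neural cells that grows in suspension and can be passaged. Primary neurospheres from pluripotent cells are known to hold early progenitors that make mostly neurons, while later passages make more glia. Notch signalling keeps neural progenitors from differentiating through Hes repressors, proneural factors drive them towards neurons, and signals such as Sonic hedgehog and retinoic acid set their position along the neural tube. In bulk RNA, fewer cells of a type and less RNA per cell cannot be told apart.

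Signals are MAS5 intensities on a linear scale with a trimmed mean of about 100 per array, and differences are on the log2(signal + 5) scale, fibroblast-derived minus primary. A gene was called if its limma adjusted p was under 0.05 over the 13650 genes tested. By that rule 29.9% of genes were called, 15.6% higher (2134) and 14.3% lower (1946) in fibroblast-derived neurospheres. The median difference over all genes was 0.04. The sides did not overlap, with fibroblast-derived arrays higher, in 24.8% of genes and, with them lower, in another 24.8%. With all arrays brought to a common median, 1754 genes were called higher and 2472 lower, and the median over all genes was -0.15. Over both directions 4080 genes were called. Fits without the iPS-derived and without the ES-derived primary array called 1815 and 3955 genes. The 2 primary arrays stood apart. On the ES-derived array 375 genes (2.75%) were at least 4-fold higher than on the iPS-derived array, against 48 (0.352%) the other way. Between 40.5% and 49.1% of probe sets reached a signal of 20 on each of the 12 arrays, and the number of arrays limits the precision.

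**Figure D1:**
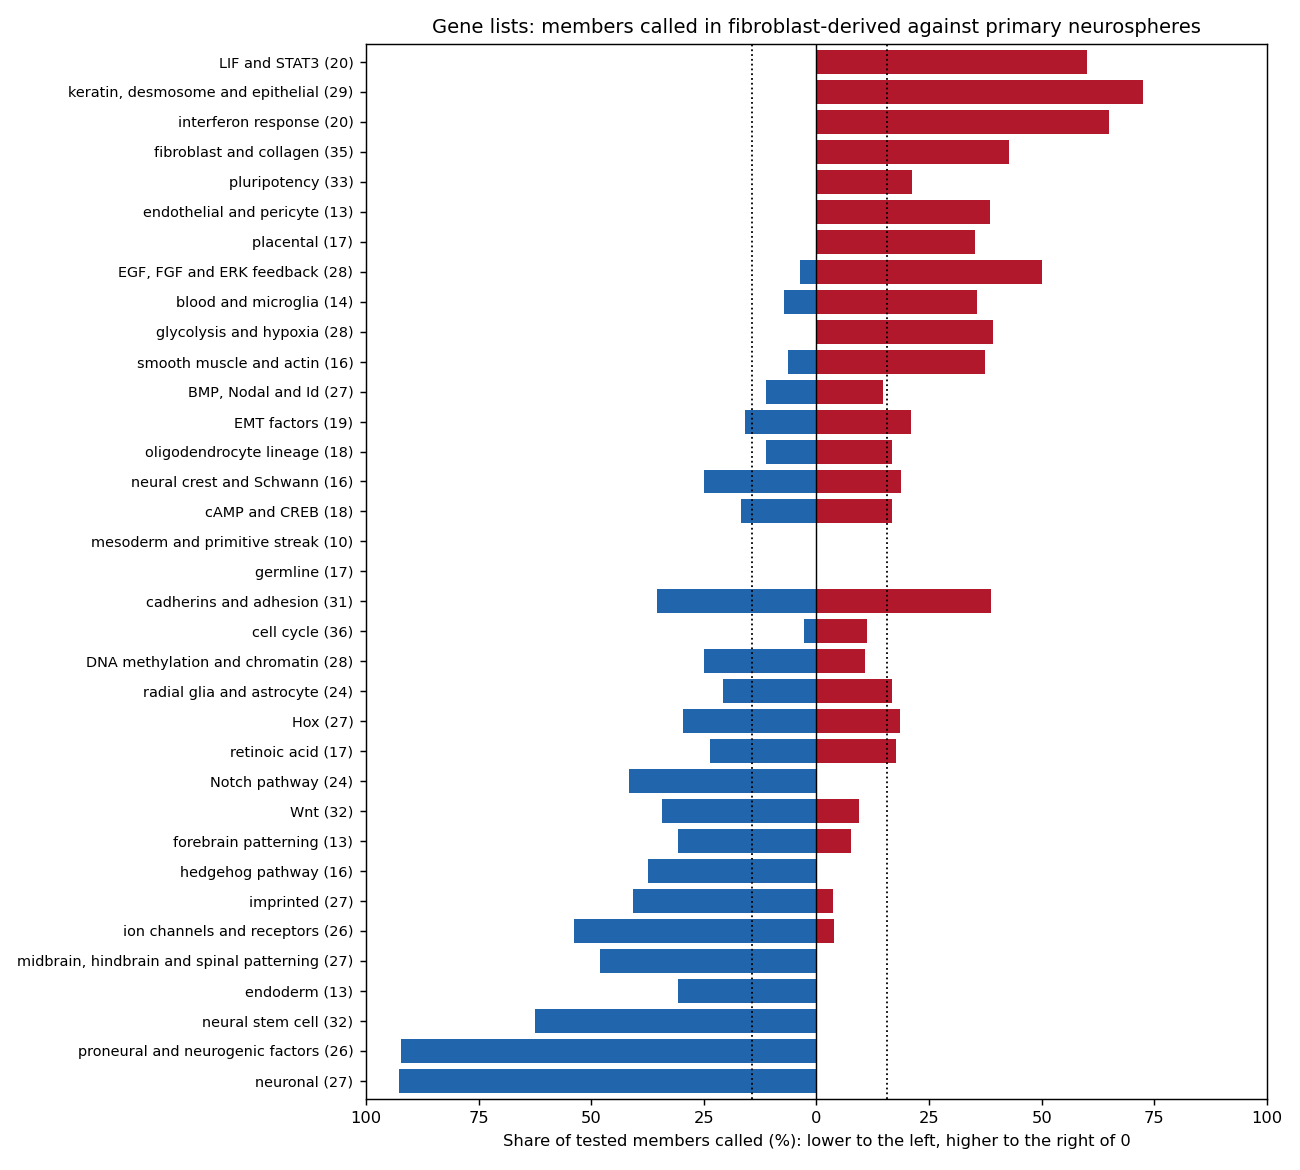
Share of the tested members of each of 35 gene lists called lower (bars to the left of 0) and higher (bars to the right) in fibroblast-derived against primary neurospheres, in percent, with the number tested in brackets; lists are ordered by median log2 difference. Dotted lines mark the shares over all genes, 14.3% lower and 15.6% higher. Neuronal and proneural lists lie furthest to the left, with 25 of 27 and 24 of 26 members lower.

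The labelled cell type was set against its defining markers first. Of 32 neural stem cell genes tested, 20 were lower in fibroblast-derived neurospheres and 0 higher, with a median difference of -2.31 against 0.04 over all genes. Fabp7, a fatty acid binding protein of radial glia, had signals of 411.2 and 517.5 in the adult-derived pair and 79.8 and 48.1 in the embryonic-derived pair, against 5081.5 and 5037.1 on the iPS-derived and ES-derived primary arrays. All 4 fibroblast-derived arrays lay below both primary arrays, and the difference was -4.84 ± 0.44 (SE; adjusted p = 0.000233). Pax6, a transcription factor of neural progenitors, had 31.6, 29.7, 24.1 and 8.7 against 449.2 and 311. The difference for Pax6 was -3.83 ± 0.35 (adjusted p = 0.000238), again without overlap.

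Pou3f3, a POU-domain factor of the developing brain, had 12.8, 66.5, 11.2 and 12.8 on the fibroblast-derived arrays, against 1670.5 and 982.4 on the primary arrays (difference -5.71 ± 0.54, adjusted p = 0.000266). Its relative Pou3f2, and the neural factors Sox3, Sox9 and Dach1, were lower as well, with differences between -4.14 for Dach1 and -2.52 for Sox9. Slc1a3, the glial glutamate transporter GLAST, had 15, 31.7, 22.3 and 28.1 against 202.3 and 334.7 (difference -3.22 ± 0.31, adjusted p = 0.000271). The RNA-binding protein Msi1 had 92, 91.5, 70.6 and 75.8 against 708.4 and 530.4 (difference -2.83 ± 0.46, adjusted p = 0.00235). The growth factor carrier Fgfbp3 differed by -4.30 ± 0.48. In each of these genes the sides did not overlap.

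Some defining markers were not called in the main comparison. Sox2, which marks both neural stem and pluripotent cells, had 85.6 and 791.4 in the adult-derived pair and 1825.8 and 2092.3 in the embryonic-derived pair, against 1907.6 and 2546.9 on the primary arrays. The lowest Sox2 signal was on the EGF and cAMP array, embryonic replicate 4 lay between the primary arrays, and the gene was not called (-1.61 ± 0.67, adjusted p = 0.105). Without adult replicate 1 or adult replicate 2 it was called lower (adjusted p = 0.0142 and 0.000475). Sox1, the earliest neuroectoderm Sox factor, had 287, 272.3, 65.5 and 47.2 against 631.5 and 495.9. It lay below the primary arrays on every array but was not called over all groups (-2.10 ± 0.97, adjusted p = 0.137), whereas a fit of the 6 arrays alone called it (adjusted p = 0.00174). The filament protein vimentin, Vim, was strong on both sides, with 4482.9, 4128.7, 3569.1 and 3144.2 against 5001.7 and 4292.3, and was not called except with a common median (adjusted p = 0.0406).

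Nestin, Nes, the filament protein by which neural progenitors are commonly stained, had 200.6, 155.7, 71.5 and 79.3 on the fibroblast-derived arrays, against 326.1 and 296.6 on the primary arrays. It was called lower (-1.39 ± 0.42, adjusted p = 0.038), but not with any of the 6 arrays left out (adjusted p from 0.0612 to 0.181). Gfap, the astrocyte filament, was at 0.5 or below on all 6 arrays. Olig2, a factor of ventral progenitors and oligodendrocytes, had 25.8, 36.1, 141.3 and 115.5 against 45.9 and 33.2 and was not called (adjusted p = 0.15). The embryonic-derived arrays were above both primary arrays for Olig2, and the adult-derived arrays were not.

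**Figure D2:**
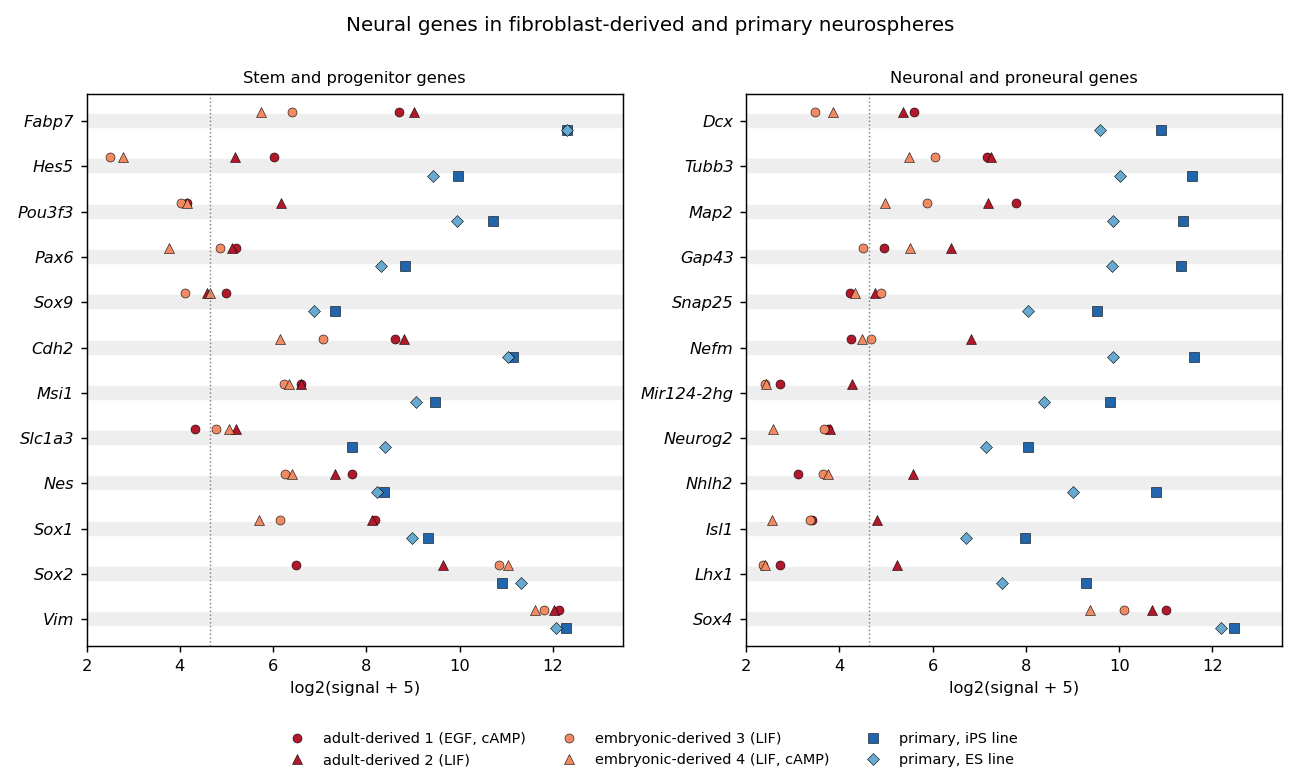
Signals of 24 neural genes on each array, on a log2(signal + 5) axis; each gene has its fibroblast-derived arrays in the upper row (red, adult; orange, embryonic) and its primary arrays in the lower row (blue), and the dotted line marks a signal of 20. The sides are separate for all genes shown but Sox2 and Vim, as in Dcx, with 6.2 to 43.8 against 761.8 and 1908.2.

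Neuronal genes formed the list with the lowest median, -3.48, with 25 of 27 members lower and 0 higher. Dcx, doublecortin, a microtubule protein of migrating young neurons, had 43.8, 36.1, 6.2 and 9.6 on the fibroblast-derived arrays, against 1908.2 and 761.8 on the primary arrays (difference -5.66 ± 0.42, adjusted p = 0.000134). Scg3, a secretory granule protein, had 12.7, 17.6, 1.5 and 0.8 against 850.2 and 331 (difference -5.60 ± 0.39, adjusted p = 0.000123). For both genes the iPS-derived primary array was the highest and the embryonic-derived arrays the lowest.

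The growth cone protein gene Gap43 had 26, 79, 17.7 and 41 on the fibroblast-derived arrays, against 2567.6 and 912.9 on the primary arrays (difference -5.24 ± 0.51). Tubb3, the neuronal beta-tubulin, had 138, 147.5, 60.8 and 39.7 against 3009.6 and 1026.2 (difference -4.30 ± 0.54, adjusted p = 0.000787). The neurofilament gene Nefm had 13.9, 108.9, 20.4 and 17.4 against 3091.4 and 925.6 (difference -5.67 ± 0.79, adjusted p = 0.00119). On the 4 fibroblast-derived arrays these genes lay far below either primary array, the nearest being Tubb3 with 147.5 against 1026.2. Map2, which binds dendritic microtubules, Snap25, part of the synaptic vesicle fusion machinery, Kif5c, a neuronal kinesin, and Rbfox3, the antigen NeuN, were called lower with differences of -4.16, -4.21, -3.81 and -3.48. The adult-derived pair alone had 23 of the 27 lower and the embryonic-derived pair 25, both set against the same 2 primary arrays.

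The genes named next were taken from the 15 lowest called genes whose sides did not overlap, so their separation follows from that choice. Gpm6a, a membrane glycoprotein of neurites, had 1.3, 25.7, 1.6 and 4.7 on the fibroblast-derived arrays, against 1655.8 and 706.2 on the primary arrays, the lowest difference of all named genes (-6.69 ± 0.64, adjusted p = 0.000266). Pantr1, a noncoding RNA that neighbours Pou3f3, differed by -6.67 ± 0.70, Tenm2, a teneurin of synapses, by -6.02 ± 0.44, and Dcc, the netrin receptor of growing axons, by -5.53 ± 0.70. Rtn1, Rufy3 and Spon1 had differences from -5.56 to -5.36. Mir124-2hg, the host transcript of a gene for the neuronal microRNA miR-124, had 1.6, 14.3, 0.3 and 0.4 against 892.6 and 328.4 (difference -6.14 ± 0.77, adjusted p = 0.00078). The array measured this host transcript and not the mature microRNA.

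Proneural and neurogenic factors followed the same direction, with 24 of 26 lower, 0 higher and a median of -2.80. Neurog2, a bHLH factor that commits progenitors to neurons, had 8.4, 8.9, 7.8 and 1 on the fibroblast-derived arrays, against 258.2 and 135.3 on the primary arrays (difference -4.14 ± 0.48, adjusted p = 0.000575). Nhlh2, a bHLH factor of newborn neurons, had 3.7, 42.8, 7.6 and 8.5 against 1755.4 and 508.6 (difference -5.87 ± 0.80, adjusted p = 0.00112). Neurod4, which acts after Neurog2, had 15.8, 64.8, 9.7 and 8.1 against 399.2 and 167.3. In all 3 genes the iPS-derived primary array was above the ES-derived one, and the fibroblast-derived arrays were below both.

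Factors of postmitotic neuron classes belonged to the same list. Isl1, of motor and sensory neurons, had 5.6, 22.8, 5.4 and 0.9 on the fibroblast-derived arrays, against 246.6 and 100.6 on the primary arrays (difference -3.81 ± 0.51). Lhx1, of interneurons, had 1.6, 32.6, 0.1 and 0.3 against 623.6 and 173 (difference -5.21 ± 0.82, adjusted p = 0.00213). Ebf3 differed by -3.35 ± 0.35. Sox4 and Sox11, which turn on neuronal genes, remained measurable but were lower, Sox4 with 2041.7, 1668.2, 1098.4 and 658.1 against 5623.2 and 4643.6 (-2.02 ± 0.23, adjusted p = 0.000486), and Sox11 by -3.01 ± 0.52.

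Of 24 Notch pathway genes, 10 were lower and 0 higher, with a median of -0.43. The target gene Hes5, a repressor that holds neural progenitors in place, had 59.7 and 31.1 in the adult-derived pair and 0.7 and 1.9 in the embryonic-derived pair, against 989 and 681.6 on the primary arrays (difference -5.57 ± 0.54, adjusted p = 0.000289). No fibroblast-derived array came near the primary arrays, and the embryonic-derived ones were under a signal of 2. The target Hey1 had 48.1, 45.3, 34 and 58 against 343.4 and 210 (difference -2.43 ± 0.28), and the feedback regulator Nrarp had 102.3, 121.6, 78.6 and 88.5 against 1105.1 and 469.3 (difference -2.84 ± 0.41). Among ligands, Dll1 had 127.9, 84, 47.9 and 44.1 against 471.7 and 305.6 (difference -2.37 ± 0.27, adjusted p = 0.000491) and Dll3 differed by -2.58 ± 0.42. Among receptors, Notch3 differed by -1.30 ± 0.28 and Notch1 by -1.74 ± 0.44. Without the iPS-derived primary array, or without embryonic replicate 4, only 6 of the 24 were lower, and Notch1 was not called (adjusted p = 0.123 and 0.055).

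Notch targets are bound by the factor RBPJ at the letters GTGGGAA. Hes5, which was the lowest of the list, and Nrarp and Hey1 were looked up for printing. Only Hes5 gave a match, so the promoter shown was chosen by that outcome. RefSeq places the Hes5 window of 300 bases, 250 before to 50 after the start, on the plus strand of GRCm38.p6 at chr4:154960673-154960972. Capitals mark matches on either strand.
Hes5 promoter: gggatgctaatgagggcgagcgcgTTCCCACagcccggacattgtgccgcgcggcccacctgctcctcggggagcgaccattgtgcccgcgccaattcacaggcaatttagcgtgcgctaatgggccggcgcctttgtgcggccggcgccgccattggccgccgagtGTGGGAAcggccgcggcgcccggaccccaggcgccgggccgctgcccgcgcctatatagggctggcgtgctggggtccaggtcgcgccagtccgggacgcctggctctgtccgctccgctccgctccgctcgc
The Hes5 window held 2 matches, the first starting 226 bases before the gene's start. Over all 32851 RefSeq promoter windows, 6.38% held the motif, and 7.25% of the 27025 genes held it in at least 1 window. Of the 20 Notch list members with a window, 3 had a match (Hes5, Lfng and Hey2), and 1 of the 8 called lower did. A match of letters is a description and not a measured binding site.

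Sonic hedgehog itself separated the sides widely. Shh, the ligand made by the floor plate, had 4 and 29.8 in the adult-derived pair and 10.5 and 5.6 in the embryonic-derived pair, against 1602 and 1153.4 on the primary arrays (difference -6.5 ± 0.50, adjusted p = 0.000136). Ptch1, the receptor that is also a target of the pathway, had 426.3, 461.3, 559.5 and 563.7 against 1705.5 and 1838.5 (difference -1.82 ± 0.24, adjusted p = 0.000962). Neither gene overlapped between the sides: the highest fibroblast-derived array had 29.8 for Shh, against at least 1153.4 on the primary arrays, and for Ptch1 563.7 against at least 1705.5. Of 16 hedgehog genes 6 were lower and 0 higher.

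Among patterning factors, Foxa2, of floor plate and endoderm, had 2.5, 28.7, 7.3 and 5.5 on the fibroblast-derived arrays, against 290 and 266.4 on the primary arrays (difference -4.40 ± 0.59, adjusted p = 0.00101), and its relative Foxa1 differed by -3.98 ± 0.35. Nkx6-1, a ventral progenitor factor, had 6.5, 15.9, 0.6 and 0.7 against 313 and 143.1 (difference -4.54 ± 0.38), and Nkx2-2 differed by -3.52 ± 0.45. Olig2, given above, was not called. Of dorsal and intermediate factors, Pax3 had 14.1, 37.9, 0.5 and 6.1 against 140.7 and 185.9 (difference -3.48 ± 0.43), Pax7 differed by -2.59 ± 0.34, Dbx1 by -4.60 ± 0.49 and Irx3 by -2.66 ± 0.47. No fibroblast-derived array reached a primary array in the called genes named here. List members with the smallest adjusted p were named first, so this follows in part from that choice. Of 27 midbrain, hindbrain and spinal patterning genes 13 were lower and 0 higher, with a median of -1.30. Called or not, 16 of the 27 were lower without overlap.

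Hox genes encode position along the body axis by paralogue number, and the called ones were divided by that number. Of the 12 tested genes of paralogue groups 1 to 5, 8 were lower and 0 higher in fibroblast-derived neurospheres, with a median of -2.33. Of the 15 tested genes of groups 6 to 13, 5 were higher and 0 lower, with a median of 1.40. The other 14 Hox genes were not called, and not all followed the division. Hoxb6 and Hoxb9 lay at -0.41 and -0.38. Hoxc8 had 274.1 and 192.4 in the adult-derived pair and 7 and 18.4 in the embryonic-derived pair, against 0.2 and 30.6. Hoxc4 differed by 0.37 in the adult pair and -4.30 in the embryonic pair. Hoxb3 had 185.8 and 82.6 in the adult-derived pair and 13.2 and 21.9 in the embryonic-derived pair, against 929 and 628.9 on the primary arrays (difference -3.85 ± 0.37, adjusted p = 0.000266). Hoxa2 had 14.3, 10.1, 4.3 and 9 against 171.3 and 99.6 (difference -3.28 ± 0.41), and Hoxb2 had 121.2, 87.9, 17.9 and 22.7 against 436.2 and 335.5 (difference -2.89 ± 0.48). These 3 genes were lower without overlap, most so in the embryonic-derived pair.

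At the other end, Hoxd8 had 163, 182.1, 112.7 and 145.7 on the fibroblast-derived arrays, against 7.9 and 18.1 on the primary arrays (difference 3.15 ± 0.59, adjusted p = 0.00483). Hoxd9 had 74.4, 71.5, 63.5 and 83.3 against 0.5 and 7.3 (difference 3.24 ± 0.63, adjusted p = 0.0057). On these arrays the fibroblast side was high in both pairs alike. Hoxa10 had 30.8 and 22.6 in the adult pair and 286.5 and 314.6 in the embryonic pair, against 10.5 and 7.9 in primary neurospheres (difference 2.79 ± 0.61, adjusted p = 0.00939). Hoxd13, a gene of digits and the tail end, had 12.9 and 7.6 in the adult pair and 124.3 and 186.6 in the embryonic pair, against 0.9 and 10.3. Its adult-derived and primary arrays overlapped, and it was called over both pairs (2.36 ± 0.42, adjusted p = 0.00368). Adult fibroblasts, on a single array, had 216.3 for Hoxd8, 31.7 for Hoxd9, 97 for Hoxa10 and 6 for Hoxd13. Of the genes called lower, that array had 133.6 for Hoxb2, 85.6 for Hoxb3 and 13.2 for Hoxa2. Without the iPS-derived primary array 1 of the 27 Hox genes was higher and 4 were lower. Among those no longer called without it were Hoxd8, Hoxd9 and Hoxa10 (adjusted p = 0.0565, 0.0672 and 0.0556). Hoxd3 kept its call with the ES-derived array left out and lost it with any of the other 5 left out (adjusted p from 0.0797 to 0.312), and Hoxb1 was not called without the ES-derived array (adjusted p = 0.108).

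**Figure D3:**
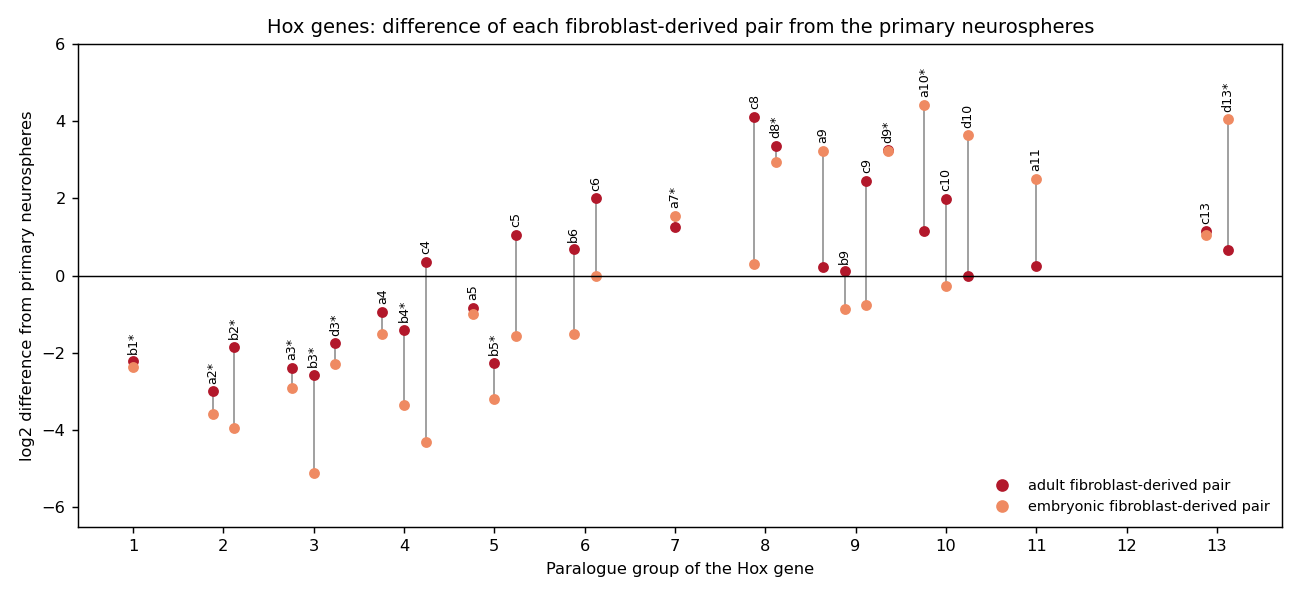
Log2 difference of the adult (red) and embryonic (orange) fibroblast-derived pair from the same 2 primary arrays, for the 27 Hox genes tested, by paralogue group; each vertical line joins the values of a gene, named by its cluster letter and number, and a star marks genes called over both pairs. The 8 called genes of groups 1 to 5 lie below 0 and the 5 called genes of higher groups above it.

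Of 32 Wnt genes 11 were lower and 3 higher, where 14.3% of all genes were lower and 15.6% higher. The receptor gene Fzd3 had 267.8, 188.4, 71.6 and 65 on the fibroblast-derived arrays, against 1697.8 and 1143.3 on the primary arrays (difference -3.43 ± 0.32, adjusted p = 0.000237), and Fzd2 differed by -2.51 ± 0.36. The secreted inhibitor gene Sfrp2 had 62.6, 113.9, 31.6 and 69.2 against 1947.1 and 1172 (difference -4.47 ± 0.42). The ligand gene Wnt5a differed by -2.33 ± 0.35 and Wnt7a by -3.78 ± 0.60, although a probe set of Wnt7a had the other sign. Fzd5, another receptor, was higher, with 314.4, 366, 361.1 and 245.1 against 19.5 and 55.6 (difference 3.07 ± 0.42, adjusted p = 0.00113). The higher count was 1 of 32 without the iPS-derived primary array, adult replicate 1 or embryonic replicate 3.

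Receptors of transforming growth factor beta went opposite ways. Tgfbr2, which binds the ligand, had 788.7, 1377.4, 941.9 and 772.6 on the fibroblast-derived arrays, against 43.9 and 104 on the primary arrays (difference 3.70 ± 0.52, adjusted p = 0.00129). Its signalling partner Tgfbr1 had 256.7, 323.8, 257.5 and 158.9 against 1633.7 and 1035.1 (difference -2.40 ± 0.27, adjusted p = 0.000497). Aldh1a3, an enzyme that makes retinoic acid, had 101.5, 146.7, 135.6 and 216.8 against 3.6 and 4.9 (difference 4.02 ± 0.51, adjusted p = 0.000826). Tgfbr2, Tgfbr1 and Aldh1a3 did not overlap between the sides. Over all genes 15.6% were higher and 14.3% lower. Of 17 retinoic acid genes tested, 3 were higher and 4 lower, with a median of -0.34. Summed over that list, signals were 2266, 3489, 2576 and 3494 against 5693 and 5270, so Aldh1a3 does not stand for the list.

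LIF and STAT3 genes had the highest median of all 35 lists, 2.84, with 12 of 20 higher and 0 lower. LIF and its relatives signal through gp130 and the factor STAT3, which raises its own inhibitor Socs3 and acute-phase genes. Stat3 had 638.3, 710.4, 595.9 and 678.5 on the fibroblast-derived arrays, against 110.9 and 133.8 on the primary arrays (difference 2.38 ± 0.19, adjusted p = 0.000149). Socs3 had 1306.1, 1716.3, 1528.8 and 1822.4 against 80.3 and 114.8 (difference 3.97 ± 0.42, adjusted p = 0.000391). The adult array without LIF, replicate 1, was within the range of the LIF arrays for Stat3 and the lowest of the 4 for Socs3.

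Osmr, the oncostatin M receptor, had 302.7, 935.4, 507.3 and 302.7 on the fibroblast-derived arrays, against 0.2 and 3.3 on the primary arrays (difference 6.14 ± 0.63, adjusted p = 0.000354). Timp1, an inhibitor of matrix proteases, had 780.7, 946.2, 903.3 and 1088.7 against 6.3 and 36.1 (difference 5.43 ± 0.49, adjusted p = 0.000229). Cebpd, an acute-phase transcription factor, had 356.9 without LIF and 967.1, 1126.8 and 1242.6 with it, against 28.2 and 42 (difference 4.41 ± 0.39). These genes were high on all 4 fibroblast-derived arrays. Cebpb differed by 3.58 ± 0.57 and Bcl3 by 3.61 ± 0.38. The acute-phase protein gene Saa3 had 38.8 on the array without LIF and 2344.8, 1198.5 and 1500.5 on the others, against 12.7 and 4.7, and Lcn2 had 8.9 and 299.1, 181.9 and 937.5 against 1.7 and 1.4. For both, the EGF and cAMP array lay far nearer to the primary arrays than the 3 LIF arrays did. Saa3 was not called without either primary array (adjusted p = 0.0559 and 0.0547) nor Lcn2 without the iPS-derived array (adjusted p = 0.0785).

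Socs3, the direct feedback target in the list, and Timp1, Osmr, Stat3 and Bcl3 were looked up for printing. Only Socs3 gave a match, so the promoter printed was chosen by that outcome. STAT factors bind TTCNNNGAA, which reads the same on both strands, and capitals mark the match in the RefSeq window of GRCm38.p6, minus strand, chr11:117969317-117969616.
Socs3 promoter: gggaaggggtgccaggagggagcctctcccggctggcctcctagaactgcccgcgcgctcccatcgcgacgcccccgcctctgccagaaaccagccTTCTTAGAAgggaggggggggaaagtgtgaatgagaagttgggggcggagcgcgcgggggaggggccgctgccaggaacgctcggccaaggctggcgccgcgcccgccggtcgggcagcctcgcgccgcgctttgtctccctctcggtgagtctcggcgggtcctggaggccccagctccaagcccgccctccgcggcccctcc
The single match started 154 bases before the gene's start. Of all 32851 windows, 8.3% held the motif, and 9.55% of the 27025 genes held it in at least 1 window. Of the 18 LIF and STAT3 list members with a window, 3 held it (Socs3, Cish and Gfap), and 1 of the 11 called higher did. No match says only that the letters are not in this window.

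**Figure D4:**
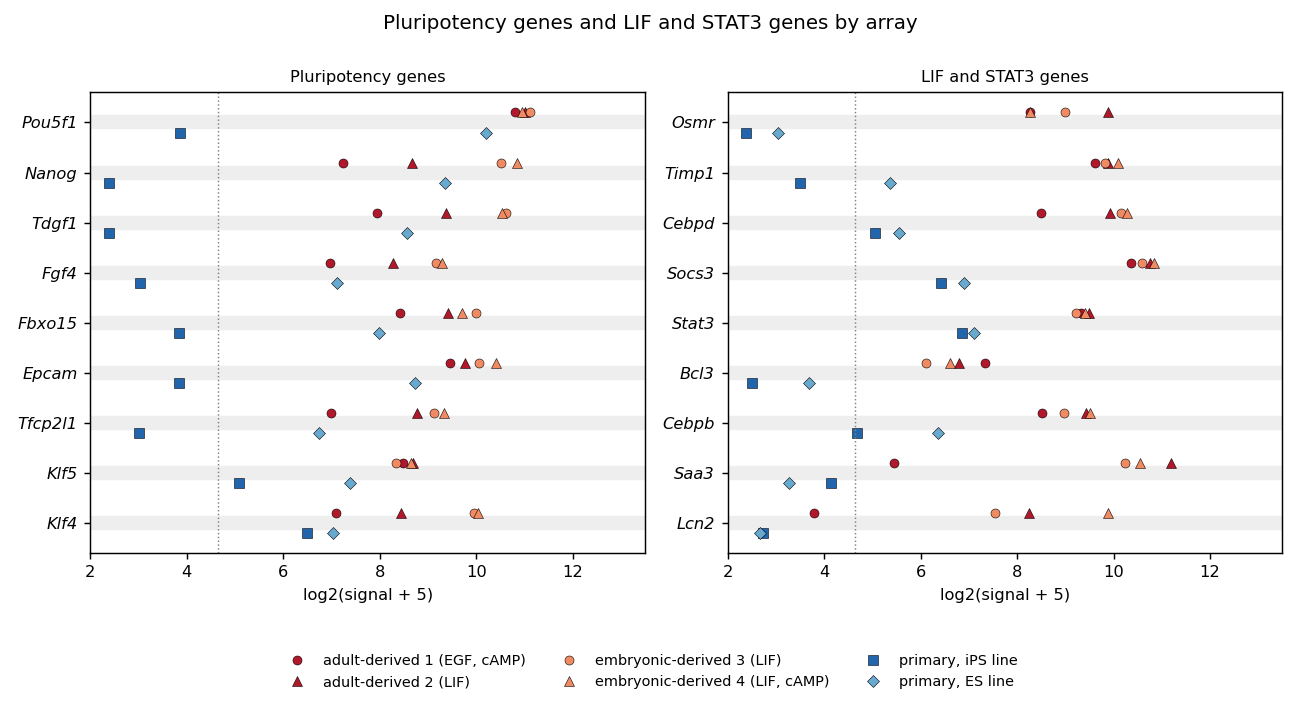
Signals of 9 pluripotency genes and 9 LIF and STAT3 genes on each array, on a log2(signal + 5) axis, with fibroblast-derived arrays in the upper row of each gene and primary arrays in the lower row; the dotted line marks a signal of 20. The 2 primary arrays are far apart for the pluripotency genes shown (Pou5f1 at 9.6 and 1174.1) except Klf4 (85.2 and 124.8). They lie closer together for most of the LIF and STAT3 genes (Socs3 at 80.3 and 114.8), less so for Timp1 (6.3 and 36.1) and Cebpb (20.6 and 77.4).

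Most pluripotency genes set the 2 primary arrays apart. Pou5f1, the gene of Oct4, had 1787, 2069.2, 2217.8 and 1981.2 on the fibroblast-derived arrays, against 9.6 on the iPS-derived and 1174.1 on the ES-derived primary array. The pluripotent cells themselves had 2817.5 and 2462.2, and the adult fibroblast array had 1.3. Although the sides did not overlap, Pou5f1 was not called (3.94 ± 1.43, adjusted p = 0.0692). With the line of origin as a block it was called (adjusted p = 0.0204), and likewise without the ES-derived primary array (adjusted p = 0.000859).

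Nanog, which stabilises the pluripotent state, had 145.2 and 401.6 in the adult-derived pair and 1453.7 and 1844.9 in the embryonic-derived pair, against 0.2 and 648 on the primary arrays. The adult-derived arrays lay between the primary arrays and the embryonic-derived ones above both, and Nanog was called only without the ES-derived array (adjusted p = 0.000859). Of 33 pluripotency genes 26 were at least 4-fold higher on the ES-derived than on the iPS-derived primary array, and 0 the other way. Summed over the list, signals were 10649 and 19811 in the adult pair and 27472 and 27789 in the embryonic pair, against 3973 and 19250 on the iPS-derived and ES-derived primary arrays.

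In the test, 7 of the 33 were higher and 0 lower: Tfcp2l1, Klf5, Klf4, Fgf4, Epcam, Fbxo15 and Tdgf1. The adult pair alone had 1 of the 33 higher and the embryonic pair 11. The naive-state factor Tfcp2l1 had 122.5, 433.6, 556 and 641.5 against 3.1 and 102.5 (difference 3.68 ± 0.89, adjusted p = 0.0152). Klf5 had 352.4, 408.6, 317.8 and 394.7 against 29 and 161.1 (difference 2.31 ± 0.57, adjusted p = 0.0161). The sides did not overlap in either. In Fgf4 and Tdgf1 they did, as adult replicate 1 had 119.3 and 240 against 133.6 and 372.9 on the ES-derived primary array. The number called higher depended on the arrays entered. It was 24 of 33 without the ES-derived primary array and 0 without the iPS-derived one. It was 2 to 4 without 1 of the fibroblast-derived arrays, and 13 with the line as a block.

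Keratin, desmosome and epithelial genes were higher, 21 of 29 with 0 lower and a median of 2.42. Itgb4, the integrin subunit of hemidesmosomes, had 189.9, 153.5, 188.8 and 322.2 on the fibroblast-derived arrays, against 1.3 and 1 on the primary arrays (difference 5.10 ± 0.33, adjusted p = 0.000123). Pkp1, a desmosome plaque protein, had 312.1, 137.2, 133.1 and 213.9 against 0.9 and 1.2 (difference 4.99 ± 0.38, adjusted p = 0.000134). Perp, a desmosome protein under p63 and p53 control, had 1218.1, 1025.9, 1071.5 and 1173.1 against 8.7 and 45.8 (difference 5.41 ± 0.67). All 3 were at 45.8 or below on the primary side, and adult fibroblasts had 1.8 for Itgb4, 1.4 for Pkp1 and 44.4 for Perp.

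Krt19 had 182.6, 266.5, 496.9 and 575.8 on the fibroblast-derived arrays, against 3.9 and 30.4 on the primary arrays (difference 4.30 ± 0.49), Dsp differed by 3.55 ± 0.46 and Krt17 by 3.23 ± 0.39. The basal epidermal genes Krt14 and Trp63 were called higher at low signals, Krt14 with 10.1, 35.7, 44.7 and 57.2 against 1.2 and 2.8 (2.42 ± 0.41), and Trp63 with 10, 26, 25.5 and 28.1 against 0.6 and 4.2 (1.87 ± 0.39, adjusted p = 0.00822). Cdh1, the epithelial cadherin that pluripotent cells also carry, had 528.7, 936.9, 1021 and 1395.4 against 89 and 1026, so that it overlapped and was not called (adjusted p = 0.17), except without the ES-derived primary array (adjusted p = 0.00185). Without the iPS-derived primary array 11 of the 29 were higher, and Trp63 was not called (adjusted p = 0.0891).

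The neural cadherin went the other way. Cdh2, N-cadherin, had 388 and 442.5 in the adult-derived pair and 129.9 and 66.2 in the embryonic-derived pair, against 2247.5 and 2095.8 on the primary arrays (difference -3.42 ± 0.26, adjusted p = 0.000143). Pcdh8, a protocadherin, had 44.6, 80.1, 10.7 and 21 against 1505.8 and 953.1 (difference -5.05 ± 0.33, adjusted p = 0.000123). The neural adhesion molecules Ncam1 and Nrcam differed by -3.06 ± 0.32 and -3.22 ± 0.25. Of 31 cadherin and adhesion genes 11 were lower, among them these, and 12 were higher, among them Cd44 with 1668.2, 2592.4, 2678.5 and 2063.6 against 48.8 and 137.2 (difference 4.66 ± 0.59, adjusted p = 0.000813). The laminin chain gene Lama4 had 441.2, 926.5, 752.6 and 373.6 against 0.6 and 3.7 (difference 6.40 ± 0.66).

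Of 35 fibroblast and collagen genes 15 were higher and 0 lower, with a median of 2. S100a4, fibroblast-specific protein, had 2167, 2246.5, 2685.6 and 2234.6 on the fibroblast-derived arrays, against 0.5 and 7.8 on the primary arrays (difference 8.12 ± 1.13, adjusted p = 0.00118). The matrix protein gene Fbln2 had 698.4, 438.7, 145.7 and 175.3 against 12 and 18.5 (difference 3.92 ± 0.48), and fibronectin, Fn1, had 2186.5, 2363.8, 2710.6 and 2183.4 against 145.1 and 508.8 (difference 3.09 ± 0.50, adjusted p = 0.00234). The sides did not overlap in any of the 3. Prrx1, a mesenchymal transcription factor, differed by 4.39 ± 0.72, Tnfrsf12a by 2.41 ± 0.29 and non-muscle myosin Myh9 by 2.64 ± 0.33.

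The main fibrillar collagen genes were not called. Col1a1 had 12.5, 53.7, 46.6 and 36.7 on the fibroblast-derived arrays, against 3.6 and 5 on the primary arrays and 2732.7 in adult fibroblasts (2.06 ± 1.05, adjusted p = 0.176), although the fit of the 6 arrays alone called it (adjusted p = 0.0266). Col1a2 had 39.5 on the EGF and cAMP array and 1448.9, 1236.2 and 1195.4 on the LIF arrays, against 20.8 and 83.8 (adjusted p = 0.127). The EGF and cAMP array lay between the primary arrays, and without it Col1a2 was called higher (adjusted p = 0.0391). Summed over the list, signals were 10794 to 23953 on the fibroblast-derived arrays, against 3501 and 4436 on the primary arrays and 137357 in adult fibroblasts. The part of remaining fibroblasts in these differences was not tested. The count called higher was 7 without the iPS-derived primary array, and 9 without adult replicate 2 and likewise without embryonic replicate 3.

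The highest genes named next were taken from the 15 highest called genes whose sides did not overlap, so their separation follows from that choice. Klk1, tissue kallikrein, had 3383.8, 5516.6, 5619.4 and 4604.1 on the fibroblast-derived arrays, against 2.8 and 5.9 on the primary arrays (difference 8.99 ± 0.28, adjusted p = 2.14e-06). Sbspon, a somatomedin and thrombospondin domain protein, had 1439.1, 1408.7, 1952.1 and 1248.2 against 0.1 and 2.1 (difference 7.96 ± 0.42). Aldh3a1, an aldehyde dehydrogenase known from cornea and stomach, had 1875.5, 1724.5, 1624.7 and 1832.5 against 1.3 and 5.4 (difference 7.77 ± 0.64). Outside the fibroblast-derived neurospheres these 3 genes had 39 or less on every array of the series.

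Mal, a raft protein of myelin and epithelia, had 1190.1, 966.2, 1492.8 and 1834.9 on the fibroblast-derived arrays, against 0.3 and 4.1 on the primary arrays (difference 7.59 ± 0.31, adjusted p = 9.54e-06). Lgals7, a galectin of stratified epithelium, had 980.6, 1022, 1593.5 and 1447.7 against 5.5 and 1.8 (difference 7.20 ± 0.26), and Msln, mesothelin, had 722.6, 1459.6, 1251.5 and 1899.6 against 4.5 and 6.8 (difference 6.90 ± 0.35). The EGF and cAMP array was the lowest of the 4 for Msln, and adult replicate 2 the lowest for Mal. The calcium-binding S100a6, the tetraspan protein Tm4sf1 and the small heat shock protein Cryab differed by 7.67, 7.44 and 6.79, and all 3 were also high in adult fibroblasts, at 6262.5, 1774 and 2489.1. Urah, an enzyme of urate breakdown, differed by 6.45 ± 0.52, and the iPS and ES cells had 277.4 and 448.5. Ptgs2, the inducible cyclooxygenase, had 193.7, 311.5, 575.9 and 2920.4 against 1.6 and 2.1 (difference 6.38 ± 1.02, adjusted p = 0.00226). Adult fibroblasts had 2749.7 for Ptgs2 and the iPS cells 99.3.

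Mycn needs care. Its brightest probe set had 6644.6, 5809.2, 5375.6 and 5428.8 on the fibroblast-derived arrays, against 55.7 and 12.7 on the primary arrays (difference 7.47 ± 0.99, adjusted p = 0.000932). Only 1 of its 3 probe sets had that sign, and the mean over the probe sets differed by 1.81. The direction for Mycn holds for that probe set alone. Ano1, a calcium-activated chloride channel, had 2913.8, 1407.1, 2953.8 and 2043.5 against 5.7 and 68 (difference 6.32 ± 0.77, adjusted p = 0.000696), on both of its probe sets.

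**Figure D5:**
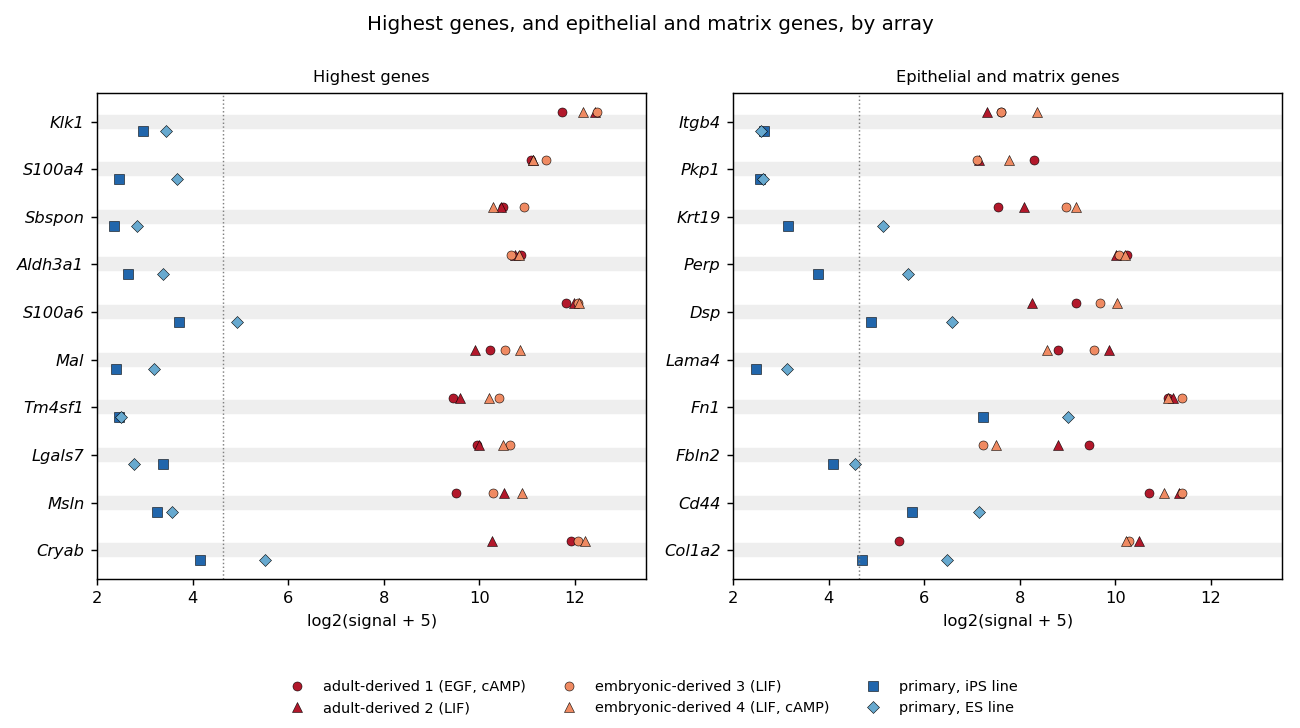
Signals of 10 of the highest genes in fibroblast-derived neurospheres (left) and of 10 epithelial and matrix genes (right) on each array, on a log2(signal + 5) axis, with fibroblast-derived arrays in the upper row of each gene and primary arrays in the lower row; the dotted line marks a signal of 20. Genes on the left were chosen as separate, such as Klk1 with at least 3383.8 against at most 5.9; Col1a2 on the right overlaps through the EGF and cAMP array.

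Growth factor feedback and immune genes were higher as well. Of 28 EGF, FGF and ERK feedback genes 14 were higher and 1 lower. The EGF receptor gene Egfr had 221.3, 257.2, 161.3 and 138 on the fibroblast-derived arrays, against 17.6 and 54 on the primary arrays (difference 2.41 ± 0.35, adjusted p = 0.00139), the immediate-early gene Ier3 had 380.3, 736, 768.1 and 1748.2 against 8 and 22.8 (difference 5.37 ± 0.49), and the feedback inhibitor Spry4 differed by 2.43 ± 0.36. The count was 3 without the iPS-derived primary array and 7 or 8 without any of the 4 fibroblast-derived arrays. The adult pair alone had 5 of these 28 genes higher and the embryonic pair 12, and 1 differed between the pairs. Of 20 interferon response genes 13 were higher and 0 lower, with a median of 2.26. In the adult pair alone 5 of the 20 were higher (median 1.51) and in the embryonic pair 16 (median 2.8). Tested against each other, the pairs differed in 0 of them. Bst2, tetherin, had 278.9, 400.7, 547 and 888.1 against 21.3 and 84.2 (difference 3.33 ± 0.49, adjusted p = 0.00157). The class I gene H2-D1 had 420.1, 588.7, 724 and 1746.3 against 80.4 and 153.9 (difference 2.69 ± 0.41), and the RNA sensor Ifih1 and the antiviral enzyme Rsad2 differed by 2.51 ± 0.37 and 2.50 ± 0.40. Embryonic replicate 4 was the highest array for all 4 genes. Ifitm3 had 4378.4, 5201, 4690.3 and 4989 against 115 and 891.8 and was not called without the iPS-derived primary array (adjusted p = 0.138), when the list count was 4.

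Cell cycle genes differed little between the sides. Of 36 tested, 4 were higher, 1 was lower, and the median was 0.05. Top2a, a topoisomerase of dividing cells, had 1112.6, 1109.7, 951.1 and 988.7 on the fibroblast-derived arrays, against 1200.4 and 1705.6 on the primary arrays, and was not called (-0.46 ± 0.18, adjusted p = 0.0838). A common median called it lower (adjusted p = 0.0293), as did leaving out the iPS-derived primary array (adjusted p = 0.0459), and its 2 probe sets had different signs. The called genes were inhibitors and a cyclin. Cdkn1a, p21, had 1622.2, 1722.7, 1338.5 and 1490.1 against 246.9 and 442.6 (difference 2.20 ± 0.42, adjusted p = 0.0049). Cdkn2a, the gene of p16 and p19, had 734.3, 1022.9, 899.5 and 838.7 against 62.7 and 85.7 (difference 3.48 ± 0.88, adjusted p = 0.018), Cdkn2b differed by 1.73 ± 0.40 and cyclin D3, Ccnd3, by 1.26 ± 0.30. Cdkn1c, p57, was the lower one, with 140.9, 161.1, 511.4 and 334.1 against 2279.4 and 1290 (difference -2.75 ± 0.38, adjusted p = 0.0012). Without the iPS-derived primary array none of the 4 was called higher (adjusted p from 0.0603 to 0.121) and 3 genes of the list were lower. Without the ES-derived one, 7 were higher, and Cdkn2a was not among them (adjusted p = 0.0526).

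The adult and embryonic pairs, set against the same 2 primary arrays, had 2672 genes (19.6%) and 3860 genes (28.3%) called. In the adult pair 9.65% of genes were higher and 9.93% lower, and in the embryonic pair 15.3% were higher and 13% lower. The adult count fell to 1150 without the iPS-derived primary array, 1613 without adult replicate 1 and 1443 without adult replicate 2. The embryonic count fell to 1988 without the iPS-derived array, 2033 without embryonic replicate 3 and 1783 without embryonic replicate 4. With a common median, 41.7% of the embryonic calls were higher, against 54.2% as reported. Tested directly against each other, adult minus embryonic, the pairs differed in 64 genes (0.469%), 9 (0.0659%) higher and 55 (0.403%) lower in the adult pair, and 1603 genes had an unadjusted p under 0.05. With the line as a block the number was 29, and without each array in turn it was 10 to 49. Tpbpa, a gene of placental spongiotrophoblast, had 3.1 and 0.4 in the adult pair and 1324.5 and 687.2 in the embryonic pair, against 5.6 and 4.6 in primary neurospheres. Only the embryonic-derived arrays were above a signal of 20, and the difference between the pairs was -7.18 ± 0.44 (adjusted p = 0.000377). Sparcl1, a matrix protein of radial glia and astrocytes, had 2.1 and 13.4 in the adult pair and 67.5 and 57 in the embryonic pair, against 422.9 and 401.7. Both pairs were below the primary arrays, the adult pair further below. Of the members of the 35 lists, 8 genes differed between the pairs.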

How the data were processed

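Each of 12 mouse cell preparations was hybridised to 1 Affymetrix array. The authors deposited signal intensities per probe set on a linear scale, for which the submitters' processing notes name MAS5 and Affymetrix Expression Console 1.1, as deposited by the authors. Their trimmed means of 99.36 to 99.55 per array left no scaling to add. Of 45101 probe sets, 64 were controls, 34945 named 1 gene symbol, 932 several and 9160 none. A gene was represented by its brightest passing probe set that named only that gene. The 13650 genes tested had a signal of 20 or more on at least 1 of the 12 arrays. Differences of log2(intensity + 5) were tested with limma 3.58.1 in R 4.3.3 (lmFit and eBayes with a trend) over all 12 arrays in 7 groups, with 5 residual and 3.63 prior degrees of freedom, and Benjamini-Hochberg adjusted p-values over all genes. The number of arrays limits the precision.

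Genes named outside the lists were the 15 highest and 15 lowest among called genes whose sides did not overlap, with a signal of 100 or more on every array of the higher side; within a list, the 4 with the smallest adjusted p came first. The 35 lists held 868 genes, of which 742 were tested, 79 fell below the filter and 47 had no probe set of their own. The lists and the comparison were chosen with earlier results of these data known. Of 91 called named genes with several probe sets, 88 had the same sign on all, the exceptions being Laptm5, Mycn and Wnt7a. Replicates 1 and 2 of the pluripotent, primary and secondary groups come from the same iPS or ES line, which pairs them across those groups. Deviations from the group means correlated at r = 0.252 for pluripotent cells with primary neurospheres, 0.0578 for pluripotent cells with secondary and 0.425 for primary with secondary, across 13650 genes that are not independent. Alternatives were other normalizations, pseudocounts of 1 and 20, no filter and a filter at 100, other uses of probe sets, no trend, the line as a block, the 6 arrays alone, and each array left out. The fit was tested on simulated data with 200 changed genes. It recovered 23.9% of log2 changes of 1, 65.7% of changes of 2 and 89.4% of changes of 4, with 9 false calls. A gene that was not called is thus not shown to be unchanged. Promoter windows are RefSeq's on GRCm38.p6.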

Additional observations from a re-analysis of the deposited data

Results flagged for a closer look

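In 6 genes named here the adult and embryonic fibroblast-derived pairs differed from each other by limma's test of the difference, adult minus embryonic, and their effects against the same 2 primary arrays are given side by side. Tpbpa differed by -7.18 ± 0.44 (adjusted p = 0.000377), with -0.61 in the adult pair and 6.57 in the embryonic pair against primary neurospheres. Hoxd13 differed by -3.39 ± 0.48 (adjusted p = 0.0346), with 0.66 and 4.05. Cd68, a lysosomal protein of macrophages, differed by -2.27 ± 0.36 (adjusted p = 0.0475), with 0.88 and 3.14. Sparcl1 differed by -2.55 ± 0.41 (adjusted p = 0.0475), with -5.19 and -2.64. Cdh2 was higher in the adult pair, by 2.10 ± 0.31 (adjusted p = 0.0361), with -2.38 and -4.47, and Hoxb3 by 2.55 ± 0.42 (adjusted p = 0.0497), with -2.57 and -5.12. The additives differed between the pairs in part, but adult replicate 2 and embryonic replicate 3 both had LIF alone. On these arrays, 1 of each pair, Tpbpa had 0.4 and 1324.5, Hoxd13 7.6 and 124.3, and Cd68 41.4 and 150.1. Sparcl1 had 13.4 and 67.5, Cdh2 442.5 and 129.9, and Hoxb3 82.6 and 13.2. The parts of donor age and additives in these differences were not tested.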

How the results depend on the processing

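With every probe set on its own, 6679 calls were made over both pairs, 4247 for the adult pair and 6297 for the embryonic pair, on more features tested. Leaving out 1 array gave 1815 to 3955 calls over both pairs, 1150 to 3046 for the adult pair and 1783 to 3930 for the embryonic pair. The number of genes that differed between the pairs, 64, was the least stable: it was 42 with quantile normalization, 40 with a common median, 10 with a pseudocount of 1, 139 with a pseudocount of 20, 10 with the filter at 100, 10 in the fit of the 6 arrays and 10 to 49 without each array in turn, and the cause was not tested. With the line as a replicate block, paired by line, 4760 genes were called over both pairs, 3342 for the adult pair, 4612 for the embryonic pair and 29 between the pairs; apart from Pou5f1 it changed no call of a named gene. Of 150 called named genes, 144 kept their call in every alternative other than leaving out an array, and 128 kept it without each array in turn; 21 lost it without the iPS-derived primary array and 4 to 8 without any other. Among named genes, signs turned in 4 that were not called: Gfap was -0.24 as the mean of its probe sets and 0 to 0.04 without each array in turn, Cdh1 ranged from -0.161 to 3.294 and Nanog from -0.035 to 6.937, in both the lowest without the iPS-derived and the highest without the ES-derived primary array, and Top2a was 0.058 as the mean of its probe sets. Signals under 20 limit what low genes can show.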

Other observations

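Imprinted genes, expressed from the allele of 1 parent, were lower in 11 of 27 tested and higher in 1, with a median of -0.98. Ndn, necdin, had 436.2, 309.1, 264.8 and 206.8 on the fibroblast-derived arrays, against 2802.2 and 2231.5 on the primary arrays (-3.07 ± 0.23, adjusted p = 0.000134), and its neighbour Magel2 had 11.7, 22.7, 13.6 and 17.3 against 174.3 and 151 (-3.00 ± 0.36). Meg3, a noncoding RNA of another imprinted cluster, had 75.9, 122.7, 221.2 and 322.1 against 961.4 and 777 (-2.39 ± 0.35), and Rian and Mirg of the same cluster were lower as well, by -2.58 and -2.36. Adult fibroblasts had 1527.4 for Ndn and 3254.3 for Meg3. Xist, the noncoding RNA of X inactivation, had 2342.2, 2111, 1640 and 1577.6 on the fibroblast-derived arrays, against 13.4 and 15.9 on the primary arrays (6.60 ± 0.18, adjusted p = 1.37e-06). Genes of the Y chromosome, chosen after their values were seen, divided the arrays otherwise. Eif2s3y had 1.4 and 0.5 in the adult pair and 146 and 131.4 in the embryonic pair, against 0.5 on the iPS-derived and 396 on the ES-derived primary array, and Uty had 0.2, 0.8, 45.7 and 46.9 against 2.1 and 117. Neither was called (adjusted p = 0.839 and 0.715). Kdm5d had 0.1, 0.2, 39.9 and 34 against 0.1 and 2 and was called higher (1.30, adjusted p = 0.0158), although its adult-derived arrays overlapped with the primary arrays. The part of sex in the other results was not tested.

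Of 26 ion channel and receptor genes 14 were lower and 1 higher, the lower count being 7 without the iPS-derived primary array. Gria2, a subunit of AMPA glutamate receptors, had 5.8, 4.3, 2.4 and 5.3 on the fibroblast-derived arrays, against 170.8 and 135.8 on the primary arrays (-4.07 ± 0.26, adjusted p = 0.000123), and the potassium channel Kcnd2 differed by -2.91 ± 0.35. Of 28 glycolysis and hypoxia genes 11 were higher and 0 lower, a count of 18 without the ES-derived primary array, 6 without the iPS-derived one or embryonic replicate 4, and 7 without adult replicate 2 or embryonic replicate 3. Hexokinase 2, Hk2, had 694, 807.1, 908.2 and 949.6 against 273.6 and 325.8 (1.47 ± 0.22), and the hypoxia-responsive Ndrg1 differed by 3.11 ± 0.47. Of 24 radial glia and astrocyte genes 4 were higher, 5 lower and 15 not called, with a median of -0.18. Over all genes 15.6% were higher and 14.3% lower. Nfix, a factor of late progenitors and glia, had 1347.4, 911.4, 903.9 and 680 against 42 and 127.4 (3.57 ± 0.45), while the astrocyte glutamate transporter Slc1a2 had 10.5, 7.3, 8 and 13.9 against 215.1 and 116.6 (-3.48 ± 0.41).

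Markers of other cell types were measured beside these. Summed over 14 blood and microglia genes, signals were 400, 350, 2359 and 611 on the fibroblast-derived arrays, against 179 and 185 on the primary arrays, and 5 were called higher and 1 lower (3 higher without the iPS-derived primary array, 9 without embryonic replicate 4). Lyz2, lysozyme of macrophages, had 1433.5 on embryonic replicate 3 and 11, 22.7 and 42.3 on the other 3, against 5.1 and 6.3, and was not called (adjusted p = 0.13) except without embryonic replicate 4 (adjusted p = 0.0153). Summed over 13 endothelial and pericyte genes, signals were 658, 807, 1537 and 1617 against 114 and 244, with 5 called higher, and 3 without the iPS-derived primary array. Tek, the angiopoietin receptor, had 242.8, 249.1, 364 and 854.3 against 6.2 and 7.5 (4.99 ± 0.49). The part of such cells in the results was not tested.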
